A study of Saccharomyces cerevisiae with 6 samples.

Results

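GNP1 and HIP1 encode amino acid permeases of the plasma membrane of the budding yeast Saccharomyces cerevisiae, and RNA reads were followed here at both loci after starvation for nitrogen or potassium. Each gene was read through a deposited feature on the opposite strand over the start of its coding sequence, YDR509W for GNP1 (YDR508C) and YGR190C for HIP1 (YGR191W). These are 2 of the 7127 deposited features and 2 of the 401 features that lie opposite exactly 1 protein-coding gene over at least 50% of their length and at least 100 bases; both passed the filter on low counts, which 2325 features passed, 359 of them paired in this way. Messenger RNA was sequenced in every group from strain BY4741, a haploid laboratory yeast with deletions of HIS3, LEU2, MET17 and URA3. Cultures growing in Synthetic Complete were left untreated for a further 1 h (control) or starved of nitrogen or of potassium for that time, with 2 libraries per group. The labels give each library a batch number and name no separate cultures, so p-values measure only the spread between these libraries.

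Gnp1 carries glutamine, asparagine and several other amino acids with broad specificity and high affinity, and Hip1 is the high-affinity histidine permease, through which a strain without HIS3, which cannot make histidine, takes it up from the medium. Both are members of the yeast amino acid transporter family of membrane proteins that bring amino acids in with protons. In amino acid rich medium the plasma membrane sensor Ssy1, with Ptr3 and Ssy5, releases the transcription factors Stp1 and Stp2 by proteolysis, and these activate permease genes, GNP1 among them. When nitrogen is poor, GATA-type activators turn on other permeases such as Gap1, and the permeases in the membrane are sorted by ubiquitin ligase adaptors.

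On the R64 reference GNP1 is a single exon on the minus strand, chrIV:1466453-1468444, 1992 bases long. YDR509W lies on the plus strand at chrIV:1468226-1468573 and covers 129 bases before the GNP1 start codon and 219 coding bases, 11% of the coding sequence. HIP1 is a single exon on the plus strand, chrVII:880420-882231, 1812 bases long. YGR190C lies on the minus strand at chrVII:880296-880661 and covers 124 bases before the HIP1 start codon and 242 coding bases, 13.4% of the coding sequence. Neither feature is in the reference annotation, and both were placed by searching the strand named in the identifier for a reading frame as long as the deposited feature. The reads counted for both permeases therefore come from the 5′ end of each locus. Of the 318 stretches of 31 bases in YDR509W and the 336 in YGR190C, 0 were found elsewhere in the genome on either strand.

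The coding bases that lie under each feature are shown because all reads assigned to the messages of these permeases were counted on them or just before them. They are given in the gene's direction from the R64 genome, at chrIV:1468226-1468444 (minus) and chrVII:880420-880661 (plus), with the start codon in capitals.
GNP1: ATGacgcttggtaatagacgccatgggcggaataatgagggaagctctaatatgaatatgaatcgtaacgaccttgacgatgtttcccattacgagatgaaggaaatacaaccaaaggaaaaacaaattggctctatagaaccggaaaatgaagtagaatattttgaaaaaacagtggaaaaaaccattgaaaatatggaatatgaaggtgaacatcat
HIP1: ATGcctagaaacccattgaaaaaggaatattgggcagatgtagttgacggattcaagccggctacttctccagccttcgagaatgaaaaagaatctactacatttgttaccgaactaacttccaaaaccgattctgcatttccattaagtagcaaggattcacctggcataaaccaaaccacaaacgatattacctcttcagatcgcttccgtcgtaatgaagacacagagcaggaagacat

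**Figure D1:**
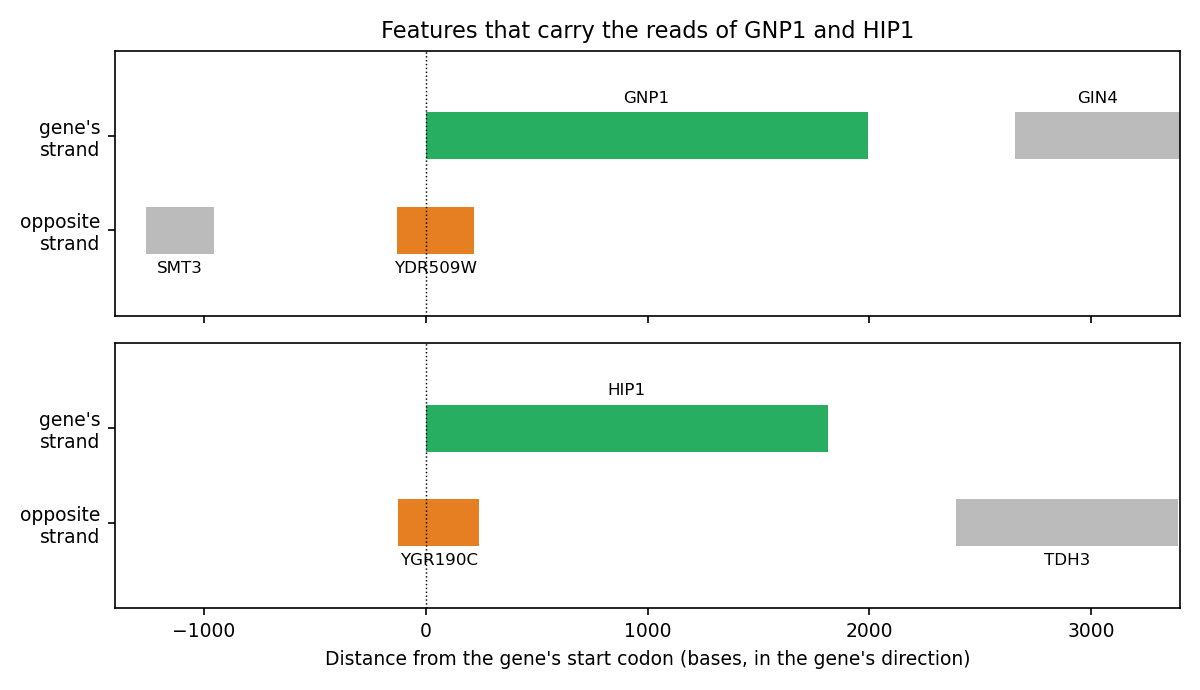
Map of both loci, with the distance from the start codon in bases along the gene's direction on the x axis. Green bars are the permease genes, orange bars the opposite-strand features that hold their reads, grey bars neighbouring genes; YDR509W and YGR190C each straddle the start codon, with 129 and 124 bases before it.

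Libraries held 357839 to 425919 reads, a shallow depth. Features opposite ribosomal RNA took 19.4% to 44.7% of them, the highest share in potassium library 2. Across 372 feature and gene pairs whose strands together averaged 20 reads or more, the opposite feature had more reads per base than the gene's own identifier in 349, and the median pair had a log2 ratio of 6.75. Reads in a paired feature are therefore taken here as reads of the gene, and reads under a gene's own identifier as reads of the other strand. Paired features held 62.5% and 58.2% of control reads, 51.6% and 42.6% of potassium reads, and 29.0% and 26.7% of nitrogen reads. Scaling thus matters for nitrogen: CPM values below, reads scaled to a common library size, use the trimmed mean of M values (TMM) over all tested features, and using paired features alone for the scaling moved the median over all tested features, in log2 fold change, from 0.28 to 1.58 for nitrogen against control, from 0.01 to 0.22 for potassium against control and from 0.17 to 1.26 for nitrogen against potassium.

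GNP1 reads were nearly lost in nitrogen starvation. The feature held 207 and 182 reads in control, 13 and 3 after nitrogen starvation and 107 and 110 after potassium starvation. Both nitrogen libraries lay far below all other libraries in raw reads. On the TMM scale the level was 741 ± 27.7 CPM (SD, n = 2) in control and 10.7 ± 9.26 CPM (SD, n = 2) in nitrogen starvation. The log2 fold change was -6.06 with a standard error of 0.48, a 66.7-fold fall (edgeR quasi-likelihood test, adjusted p = 3.9e-05). With scaling over the paired features it fell by 4.76 on the log2 scale (edgeR, adjusted p = 7.4e-05), and the deposited TPM values, which are scaled per length, went from 416 and 366 in control to 40.7 and 8.23 in nitrogen. A change of this direction was common in the series on the TMM scale, with 46.2% of all tested features called at an adjusted p below 0.05, 20.4% called lower, and 59.9% of paired features called lower, while scaling over the paired features left 7.53% of all features and 25.6% of paired features called lower. GNP1 was called lower on both scales.

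Since the nitrogen level rests on few reads, its counting error was set beside the fold change. Summed over libraries, 389 control reads stood against 16 nitrogen reads, which on the TMM scale is a ratio of 68.1 with an exact 95% interval of 41.4 to 120. With scaling over the paired features the ratio was 27.5, with an interval of 16.7 to 48.6. These intervals cover counting error only. The nitrogen libraries differed from each other by more than the others did: within batch 1 the log2 difference in CPM was -5.39, and within batch 2 it was -7.51. Leaving out the nitrogen library with 13 reads or the other moved the log2 fold change over a range from -7.36 to -5.40, and GNP1 remained called in each case. Changes are relative to the other RNA in a library, so a fall of GNP1 RNA and a rise of the other RNA cannot be told apart.

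**Figure D2:**
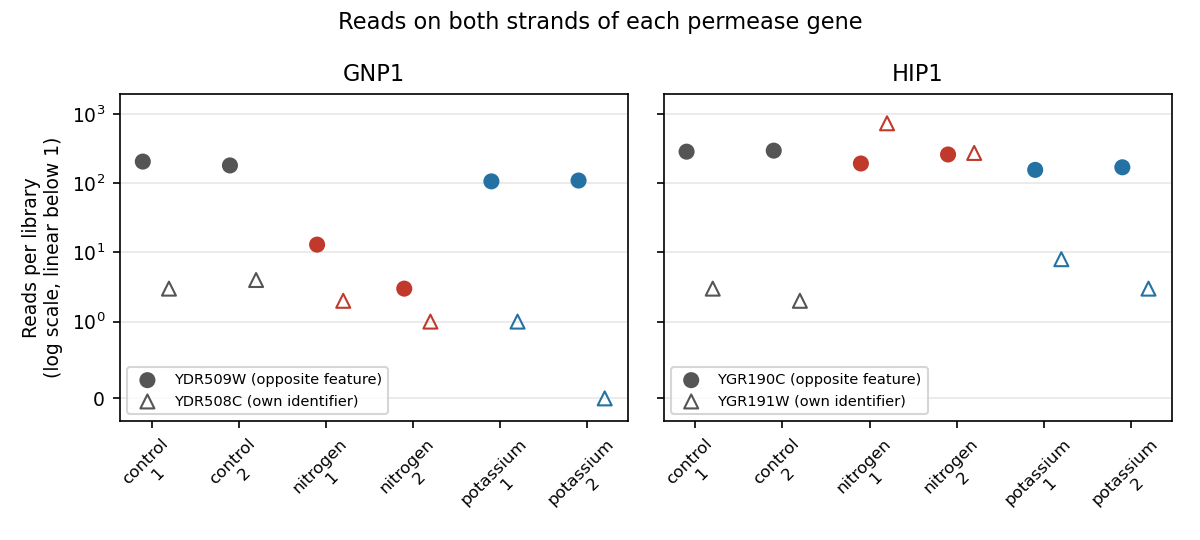
Reads per library (y axis, log scale that is linear below 1) for GNP1 and HIP1, with filled circles for the opposite feature and open triangles for the gene's own identifier, coloured by group. GNP1 feature reads drop to 13 and 3 in nitrogen, whereas HIP1 feature reads stay between 157 and 298 in all libraries and its own identifier climbs to 741 and 276 in nitrogen.

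HIP1 did not share the loss. Its feature held 288 and 298 reads in control, 194 and 262 in nitrogen and 157 and 171 in potassium. The nitrogen libraries lay below the control libraries and above the potassium libraries in raw reads, which are not scaled for library size. On the TMM scale the level was 1124 ± 171 CPM (SD, n = 2) in control and 310.3 ± 74.9 CPM (SD, n = 2) in nitrogen starvation, a log2 fold change of -1.86 with a standard error of 0.30 (edgeR, adjusted p = 0.0015). That call depended on the scale. It was -0.54 with scaling over the paired features (edgeR, adjusted p = 0.088), -0.16 with library size alone (edgeR, adjusted p = 0.63) and 0.16 on the deposited TPM values (limma, adjusted p = 0.68), for which the libraries read 490 and 507 in control and 514 and 608 in nitrogen. The median paired feature moved by -1.18 on the TMM scale and by 0.13 with scaling over paired features. No direction is given for HIP1 in nitrogen starvation, since it turned with the scale.

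**Figure D3:**
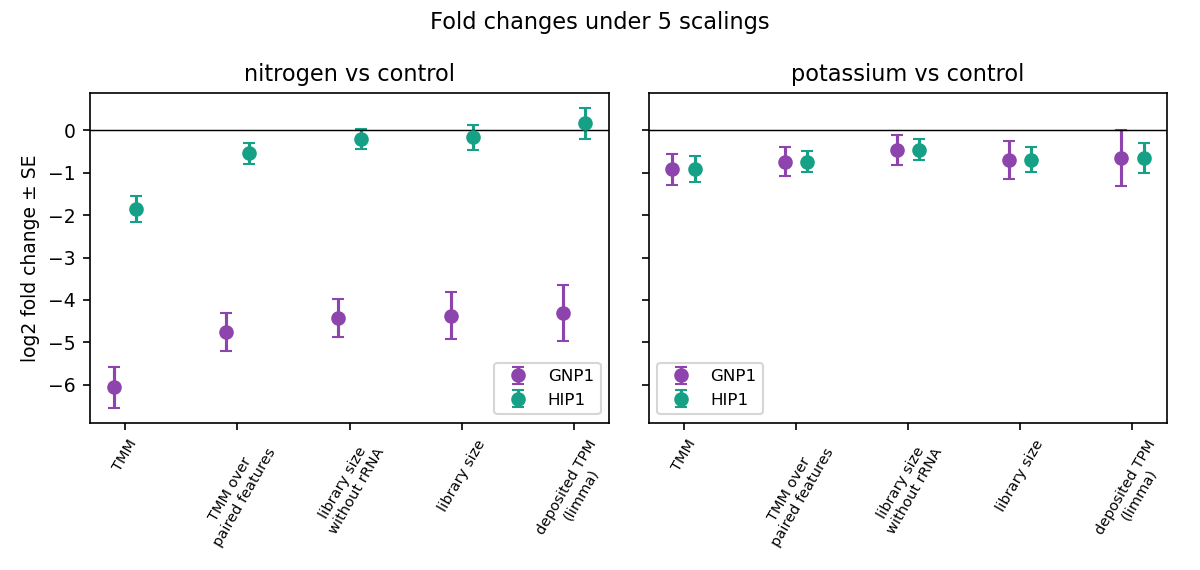
Log2 fold change with its standard error (y axis) for GNP1 (purple) and HIP1 (green) under 5 scalings (x axis), for nitrogen and potassium against control. GNP1 in nitrogen lies between -6.06 and -4.32 on all of them, while HIP1 runs from -1.86 to 0.16; in potassium both genes lie below 0 on every scaling shown.

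A comparison that needs no scaling between libraries is the number of GNP1 reads per HIP1 read within a library. This number is not corrected for length, so only its change between libraries is read. It was 0.719 (exact Clopper-Pearson 95% interval 0.598 to 0.862) and 0.611 (0.505 to 0.737) in the control libraries. In the nitrogen libraries it was 0.0670 (0.0350 to 0.117) and 0.0115 (0.00235 to 0.0338). In the potassium libraries it was 0.682 (0.528 to 0.877) and 0.643 (0.502 to 0.822). The intervals of both nitrogen libraries lay below those of all 4 other libraries, and the potassium values lay within the range of the control values. The mean log2 ratio was -0.59 ± 0.17 (SD, n = 2) in control, -5.17 ± 1.80 (SD, n = 2) in nitrogen and -0.59 ± 0.06 (SD, n = 2) in potassium, so GNP1 was 23.9-fold lower relative to HIP1 in nitrogen than in control. A two-sided exact permutation test gave p = 0.333 for nitrogen against control and for nitrogen against potassium, which is the smallest p that 2 libraries against 2 allow. For potassium against control the exact permutation test gave p = 1.

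**Figure D4:**
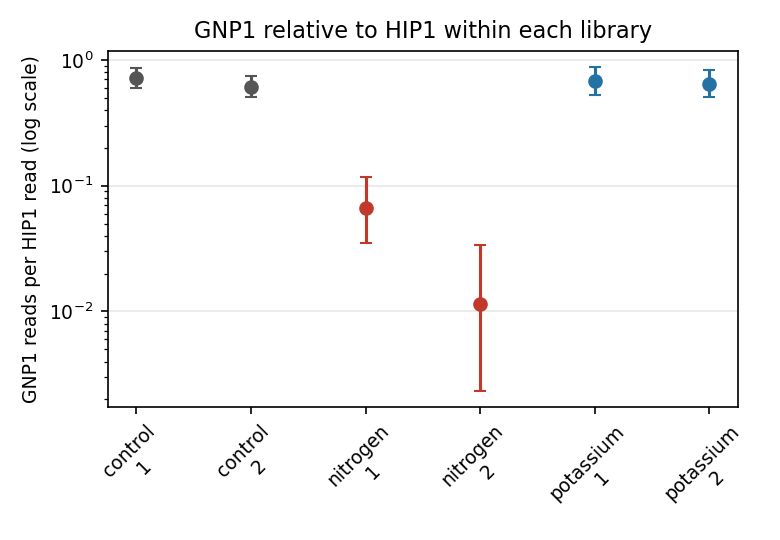
GNP1 reads per HIP1 read in each library (y axis, log scale), with exact Clopper-Pearson 95% intervals for counting error as bars. Control and potassium libraries lie between 0.611 and 0.719, and the nitrogen libraries lie at 0.0670 and 0.0115.

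In potassium starvation both permeases had fewer reads than in control, by similar amounts. GNP1 went from 207 and 182 reads to 107 and 110, and HIP1 from 288 and 298 to 157 and 171. In both genes each potassium library lay below each control library in raw reads. How many of all tested features separate in this way was not counted. Levels on the TMM scale were 395 ± 129 CPM (SD, n = 2) for GNP1 and 600.2 ± 219.8 CPM (SD, n = 2) for HIP1. The log2 fold change was -0.92 with a standard error of 0.36 for GNP1 (edgeR, adjusted p = 0.15). It was -0.91 with a standard error of 0.30 for HIP1 (edgeR, adjusted p = 0.095). Neither passed the threshold in this fit, in which 9.33% of all tested features were called, 4.6% of them lower, and 15% of paired features were called lower. With the batch number as a block the HIP1 value was -0.94 and passed the threshold (edgeR, adjusted p = 0.027), and GNP1 at -0.93 did not (edgeR, adjusted p = 0.14). Within batches 1 and 2 the log2 differences in CPM were -1.25 and -0.65 for GNP1 and -1.17 and -0.72 for HIP1. The HIP1 value was -1.06 without control library 1 and -0.75 without control library 2. It was -0.51 without potassium library 1 and -1.34 without potassium library 2.

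Set directly against each other, the starvations differed for GNP1. It was lower in nitrogen than in potassium, with a log2 fold change of -5.14 and a standard error of 0.48 (edgeR, adjusted p = 0.00021), in a comparison that called 42.7% of all tested features, 19.4% lower, and 57.7% of paired features lower. Over libraries, 217 potassium reads stood against 16 nitrogen reads, a ratio of 34.5 on the TMM scale with an exact interval of 20.8 to 61.5. With scaling over the paired features the GNP1 value was -4.03 (edgeR, adjusted p = 0.00024), where 49.4% of all tested features were called higher, 7.61% lower, and 24.2% of paired features lower. HIP1 had a log2 fold change of -0.94 with a standard error of 0.30 (edgeR, adjusted p = 0.034), but its sign turned to 0.19 with scaling over the paired features (edgeR, adjusted p = 0.54), and the call was lost without nitrogen library 1 at -0.71 and without potassium library 2 at -0.52, each with an adjusted p of 0.19 (edgeR). The nitrogen comparisons share the nitrogen libraries and those with control share the control libraries, so their values are not independent of each other.

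The other strand of HIP1 behaved unlike that of GNP1. Under its own identifier HIP1 had 3 and 2 reads in control, 741 and 276 in nitrogen, and 8 and 3 in potassium. Both nitrogen libraries stood far above the rest, with a 741 to 276 spread between them. The HIP1 identifier passed the filter on low counts only through these nitrogen reads. GNP1 under its own identifier had 3 and 4 reads in control, 2 and 1 in nitrogen, and 1 and 0 in potassium, and it did not pass the filter on low counts. For HIP1 the level was 9.40 ± 1.48 CPM (SD, n = 2) in control and 683 ± 425 CPM (SD, n = 2) in nitrogen, a log2 fold change of 6.13 with a standard error of 0.63, or 69.9-fold (edgeR, adjusted p = 0.00012). Leaving out 1 library at a time gave 5.29 (without nitrogen library 1) to 6.65 (without nitrogen library 2) on the log2 scale. Over libraries, 1017 nitrogen reads stood against 5 control reads, a ratio of 72.6 with an exact interval of 31 to 224, and of 180 with an interval of 76.8 to 555 with scaling over paired features. In batch 1 the log2 difference in CPM was 6.56 and in batch 2 it was 5.52. Against potassium it was 5.16 with a standard error of 0.56 (edgeR, adjusted p = 0.00029), and potassium against control gave 0.96 (edgeR, adjusted p = 0.54).

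As a share of the reads at the locus, the own identifier of HIP1 held 1.03% and 0.667% in control, 4.85% and 1.72% in potassium, and 79.3% and 51.3% in nitrogen. Those shares compare features of unequal length. Per 100 bases the feature over the start of HIP1 held 53.0 and 71.6 reads in nitrogen, and the other strand of the whole gene held 40.9 and 15.2. In control the same quantities were 78.7 and 81.4 against 0.166 and 0.110. The other strand therefore stayed below the gene's strand per base in each library, close to it in nitrogen library 1 and further below in nitrogen library 2. From mean reads over the 6 libraries (with 0.5 added) the log2 ratio per base of gene strand to other strand was 2.71 for HIP1 and 8.0 for GNP1.

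Reads under own identifiers were more frequent in nitrogen across the pairs as a whole. They took 12.4% and 11.9% of the reads of the 372 pairs in nitrogen, 1.85% and 1.72% in control and 2.65% and 1.79% in potassium. Of 125 own identifiers of paired genes that were tested, 42 were called higher in nitrogen than in control. That is 33.6% of them, against 25.8% of all tested features. Another 18 were called lower, beside 20.4% of all tested features. An own identifier with few reads in control and potassium could pass the filter only through nitrogen, so being tested and being called higher are not independent. The median of the 125 on the log2 scale was 0.69, and HIP1 ranked number 5 by size. The 4 identifiers with larger fitted values, WWM1, DAL7, DAL80 and YIL177C, were all at 0 reads in both control libraries, which makes their fitted values depend on the prior count. In the nitrogen libraries these held 23 and 29 reads for WWM1, 26 and 21 for DAL7, 16 and 27 for DAL80, and 43 and 0 for YIL177C. At 741 and 276 reads HIP1 had far more than any of these.

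The genes next to the permeases were read under their own identifiers alone, since none of them has a paired feature. GIN4, a protein kinase of the bud neck, starts 666 bases beyond the end of GNP1 and had 4 and 5 reads in control, 4 and 5 in nitrogen and 0 and 0 in potassium. SMT3, which encodes the ubiquitin-like modifier SUMO, lies 955 bases away on the other side and had 0 to 2 reads in each library. CRH1, a cell wall transglycosylase, lies 2227 bases before HIP1 and had 0 to 4 reads in each library. TDH3, a glyceraldehyde-3-phosphate dehydrogenase gene, lies 580 bases beyond the end of HIP1 on the opposite strand and points towards it. It had 24 and 17 reads in control, 115 and 53 in nitrogen, and 8 and 7 in potassium, with a log2 fold change of 0.54 in nitrogen against control on the TMM scale (edgeR, adjusted p = 0.34). With scaling over the paired features it was called higher there, at 1.85 (edgeR, adjusted p = 0.0075), and in nitrogen against potassium it was called on the TMM scale too, at 2.09 (edgeR, adjusted p = 0.01). The message of TDH3 runs on the same strand as the reads under the HIP1 identifier, and with no paired feature it was not measured; its part in those reads was not tested.

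The features with the pattern most like that of GNP1 over the 6 libraries were sought by the Euclidean distance between mean-centred log2 CPM, among 1143 features with a mean of at least 50 CPM. They lay opposite RPL28, RPL39, SSB1, RPP0 and RPL8B, at distances of 0.94, 1.01, 1.01, 1.04 and 1.07. RPL28, RPL39, RPP0 and RPL8B encode proteins of the large ribosomal subunit, and SSB1 encodes a chaperone bound to ribosomes. The feature opposite RPL28 held 15641 and 12498 reads in control, 804 and 455 in nitrogen and 4786 and 4191 in potassium. Like GNP1, it was lowest in both nitrogen libraries and lower in potassium than in control. In potassium its log2 fold change was -1.73 and it was called (edgeR, adjusted p = 0.037), whereas GNP1 was at -0.92 and not called. The features opposite RPL39, SSB1 and RPL8B were also called lower in potassium, and that opposite RPP0 was not. For HIP1 the nearest were the features opposite CPP2, PMT1 and SIR2, the own identifier of CYT1, and the feature opposite SET2, at distances of 0.32, 0.42, 0.43, 0.44 and 0.45. PMT1 encodes a protein O-mannosyltransferase, SIR2 a histone deacetylase of silent chromatin, CYT1 cytochrome c1 and SET2 a histone methyltransferase. The feature opposite CPP2 held 680 and 574 reads in control, 449 and 647 in nitrogen and 385 and 352 in potassium. The distance between GNP1 and HIP1 themselves was 4.68, and a factor shared by all features of a library changes none of the differences between 2 features.

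GNP1 and HIP1 were the only members of the permease family read through a paired feature, 2 of a list of 20 genes, so the messages of the other 18 were not measured in this way. By identical bases as a share of the longer coding sequence, the closest member of the list to GNP1 was AGP1, a broad-specificity permease, at 67.0%. The closest to HIP1 on that measure was GAP1, the general amino acid permease, at 59.5%. Over aligned bases alone AGP1 had 70.6% identity to GNP1 over 1891. For HIP1, SSY1 at 62.8% over 1773 then lay above GAP1 at 60.8% over 1776. Under own identifiers 10 of the 20 were tested. In nitrogen against control 4 of the 10 were called higher and 1 lower, with a median log2 fold change of -0.06 beside 0.28 for all tested features. With scaling over the paired features 4 were called higher and 0 lower, with a median of 1.23 beside 1.58. Of all tested features 25.8% were called higher and 20.4% lower on the TMM scale. With scaling over the paired features 57.2% were called higher and 7.53% lower.

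The own identifiers called higher in nitrogen were those of HIP1, TAT1, GAP1 and CAN1. HIP1, GAP1 and CAN1 had few reads in every control and potassium library, so they passed the filter on low counts only through nitrogen. For these genes, being tested and being called higher in nitrogen are not independent. TAT1, a valine, leucine, isoleucine and tyrosine permease, had 13 and 10 reads in control, 164 and 260 in nitrogen and 17 and 7 in potassium, with a log2 fold change of 2.72 and a standard error of 0.40 (edgeR, adjusted p = 0.00093). CAN1, the arginine permease, had 1 and 1, 49 and 34, and 5 and 2 reads in the same order, with 3.78 and a standard error of 0.65 (edgeR, adjusted p = 0.002). GAP1 had 0 and 0 reads in control, 30 and 34 in nitrogen and 6 and 1 in potassium (edgeR, adjusted p = 0.0033), and no fold is given against a group at 0. For all of these the nitrogen libraries stood above every other library. MUP3, a low-affinity methionine permease, had 6 and 7 reads in control and 4 and 2 in nitrogen, and was called lower on the TMM scale at -2.53 with a standard error of 0.66 (edgeR, adjusted p = 0.013) but not with scaling over the paired features at -1.26 (edgeR, adjusted p = 0.12), without control library 2 at -2.29 (edgeR, adjusted p = 0.068) or without nitrogen library 2 at -2.16 (edgeR, adjusted p = 0.077). HIP1 had the most nitrogen reads among the 10, in total over its libraries.

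In potassium against control 2 of the 10 own identifiers were called higher and 0 lower, against 4.73% and 4.6% of all tested features. BAP2, a branched-chain amino acid permease, had 14 and 16 reads in control and 403 and 103 in potassium, with a log2 fold change of 3.8 and a standard error of 0.47 (edgeR, adjusted p = 0.0035), and 37 and 31 reads in nitrogen. Without potassium library 1 it was 3.04, and on the deposited TPM values it was 3.40 and not called (limma, adjusted p = 0.076). MMP1, the S-methylmethionine permease, had 13 and 11 reads in control and 68 and 30 in potassium, with 1.84 and a standard error of 0.41 (edgeR, adjusted p = 0.027), and its call was lost without potassium library 1 at 1.60 (edgeR, adjusted p = 0.13), without control library 1 at 1.83 (edgeR, adjusted p = 0.12) and without control library 2 at 1.85 (edgeR, adjusted p = 0.13). The 2 potassium libraries stood above all others for both genes but lay far apart. The remaining members tested were called in neither comparison with control. LYP1, the lysine permease, had 2 and 6 reads in control and 12 and 14 in nitrogen. DIP5, which carries glutamate and aspartate, had 19 and 11 in control and 25 and 32 in nitrogen, and SAM3, the S-adenosylmethionine permease, had 24 and 8 in control and 23 and 38 in nitrogen.

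**Figure D5:**
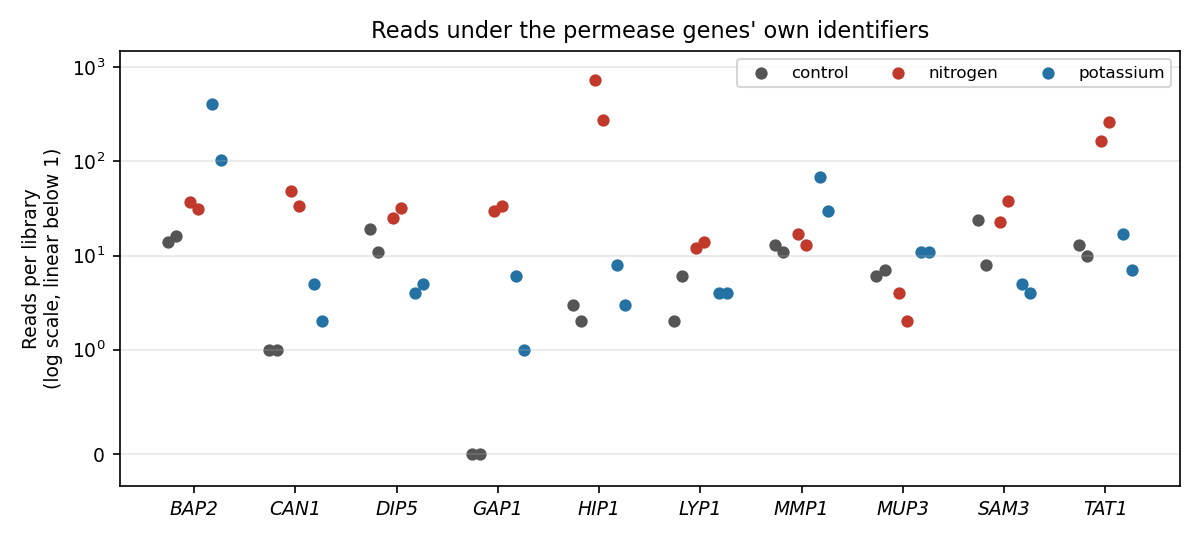
Reads per library (y axis, log scale that is linear below 1) under the own identifier of the 10 permease genes that were tested (x axis), with points coloured by group. HIP1 reaches 741 and 276 reads in nitrogen from 3 and 2 in control, TAT1 reaches 164 and 260, and BAP2 reaches 403 and 103 in potassium.

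The pathway that senses external amino acids and controls GNP1 has reads mainly under own identifiers as well. Here and in the lists below, reads under an own identifier are taken as reads of the other strand. They do not measure the message of the gene named. Of 14 genes of this sensor pathway 7 were tested in that way; 2 were called higher and 0 lower in nitrogen against control on the TMM scale, 6 and 0 with scaling over the paired features, and 0 in either direction in potassium. Of all tested features 25.8% were called higher in nitrogen on the TMM scale and 57.2% with scaling over the paired features. In potassium 4.73% of all tested features were called higher and 4.6% lower. PTR3, a subunit of the sensor, had 4 and 2 reads in control, 99 and 94 in nitrogen and 10 and 3 in potassium, with a log2 fold change of 3.50 and a standard error of 0.52 (edgeR, adjusted p = 0.00092). STP2, a transcription factor that the sensor releases, had 2 and 1, 19 and 27, and 1 and 1 reads, with 2.40 and a standard error of 0.67 (edgeR, adjusted p = 0.018), a call lost when any 1 library of either group was left out. PTR3 and STP2 passed the filter on low counts only through nitrogen. DAL81, an activator that works with Stp1, was the member with a paired feature. It had 65 and 82 reads in control, 171 and 120 in nitrogen and 63 and 92 in potassium, and passed in neither comparison with control, at -0.53 in nitrogen (edgeR, adjusted p = 0.30) and 0.02 in potassium (edgeR, adjusted p = 0.99).

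Genes that sort permeases at the membrane and in the endosome gave 6 tested own identifiers of 20, of which 1 was called higher and 0 lower in nitrogen on the TMM scale, beside 25.8% and 20.4% of all tested features, and 2 and 0 with scaling over the paired features, beside 57.2% and 7.53%. The one called on the TMM scale was ROD1, a ubiquitin ligase adaptor, with 4 and 2 reads in control, 25 and 36 in nitrogen and 3 and 3 in potassium, at 1.84 with a standard error of 0.57 (edgeR, adjusted p = 0.026), and its call was lost when any 1 library of either group was left out. ROD1 here and VBA2 below passed the filter on low counts only through nitrogen. In potassium 0 of the 6 were called, beside 9.33% of all tested features. Of 16 vacuolar amino acid transporters 5 own identifiers were tested, with 1 called higher and 1 lower in nitrogen on the TMM scale, 2 and 1 with scaling over the paired features, and 0 in potassium. The shares of all tested features are those just given. VBA2, a vacuolar transporter of basic amino acids, went from 0 and 0 reads to 15 and 28 (edgeR, adjusted p = 0.009), and lost its call without nitrogen library 2 (edgeR, adjusted p = 0.074). AVT6, which exports acidic amino acids from the vacuole, went from 18 and 17 to 6 and 6, with a log2 fold change of -2.99 and a standard error of 0.52 (edgeR, adjusted p = 0.0021), a call lost with library size alone at -1.32 (edgeR, adjusted p = 0.063). AVT3, read through a paired feature, had 71 and 51 reads in control and 150 and 151 in nitrogen, at -0.17 on the TMM scale (edgeR, adjusted p = 0.60) and 1.13 with scaling over the paired features (edgeR, adjusted p = 0.0037).

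Of 20 other transporters of nitrogen sources 16 own identifiers were tested, with 6 called higher and 4 lower in nitrogen on the TMM scale, beside 25.8% and 20.4% of all tested features. With scaling over the paired features 9 were called higher and 1 lower, beside 57.2% and 7.53%. In potassium 1 was called higher and 0 lower, beside 4.73% and 4.6% of all tested features. OPT1 and FUI1 below passed the filter on low counts only through nitrogen. OPT1, an oligopeptide transporter, had 6 and 1 reads in control and 218 and 437 in nitrogen, at 5.06 with a standard error of 0.64 (edgeR, adjusted p = 0.0004). It stayed called at 6.65 when control library 1 was left out, at 4.40 when control library 2 was, and at 4.43 when nitrogen library 2 was. FUI1, the uridine permease, had 2 and 2 in control and 125 and 58 in nitrogen, at 3.97 with a standard error of 0.67 (edgeR, adjusted p = 0.0017), and at 3.34 without nitrogen library 1. MEP3, an ammonium permease, had 59 and 87 reads in control and 420 and 279 in potassium, at 2.10 with a standard error of 0.28 (edgeR, adjusted p = 0.0045).

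Histidine synthesis, the pathway that Hip1 bypasses, gave 2 tested own identifiers of 7. Of these, 0 were called in nitrogen or in potassium on the TMM scale, beside 46.2% and 9.33% of all tested features. With scaling over the paired features 1 was called higher in nitrogen, beside 57.2% of all tested features. That was HIS5, with 1 and 2 reads in control, 11 and 24 in nitrogen and 1 and 0 in potassium. It passed the filter on low counts only through nitrogen, so being tested and being called higher are not independent. Glutamine and glutamate metabolism and its regulators gave 4 tested own identifiers of 11, with 1 called higher in nitrogen on the TMM scale, 4 with scaling over the paired features and 1 called lower in potassium, beside 25.8%, 57.2% and 4.6% of all tested features. The one called higher on the TMM scale was that of DAL80, with 0 and 0 reads in control and 16 and 27 in nitrogen (edgeR, adjusted p = 0.01). The own identifiers of DAL80, GDH2 and GCN4 passed the filter on low counts only through nitrogen. For these, being tested and being called higher are not independent. The one called lower in potassium was GDH3, a glutamate dehydrogenase, with 54 and 42 reads in control and 20 and 17 in potassium, at -1.48 with a standard error of 0.32 (edgeR, adjusted p = 0.023). That call needed both control libraries and potassium library 1. The GATA factors GAT1 and DAL80, an activator and a repressor of nitrogen catabolite genes, were read through paired features. GAT1 had 134 and 96 reads in control, 1874 and 2337 in nitrogen and 181 and 179 in potassium, with a log2 fold change of 2.72 in nitrogen and a standard error of 0.29 (edgeR, adjusted p = 0.00014). DAL80 had 4 and 2 in control, 4826 and 4646 in nitrogen and 4 and 7 in potassium, at 9.11 with a standard error of 0.44 (edgeR, adjusted p = 7.9e-06). Both rose in the libraries in which GNP1 fell, and DAL80 passed the filter on low counts only through those libraries.

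The windows from 250 bases before to 50 bases after the start codons were searched on both strands for GATAAG, a core site of GATA factors, and TGACTC, a core site of the amino acid starvation activator Gcn4. GATAAG had 0 matches in either window, while 881 of 6001 such windows of protein-coding genes, 14.7%, hold it. TGACTC had 0 matches at GNP1 and 1 at HIP1, 46 bases before the start codon on the gene's strand, and 479 of the 6001 windows, 7.98%, hold it. With a single match the motifs overlap nowhere in these windows. A match of letters describes the sequence and shows no binding.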

How the data were processed

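The authors' deposited files hold estimated counts and TPM values for 7127 features per library, with the columns that salmon writes, per the file headers. STAR 2.7.3a, DESeq2 and build R64 are listed in the submitters' processing notes; which version quantified the reads, and with which strand setting, is not given in the sources used here. A deposited table of the series holds a signal, counts divided by 1 size factor per library, for 6108 features; multiplied back, 100% of its values were whole reads and 100% equalled the rounded estimated counts within 0.001 reads, and the same test on those reads called 1075, 217 and 992 features for nitrogen against control, potassium against control and nitrogen against potassium. RNA was extracted with a kit and on-column DNase, and the KAPA mRNA HyperPrep kit was used for the libraries, per the labels' protocols.

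Features were placed on R64 by annotation (6088) or by an open reading frame search (616); on annotated genes the search placed 5580 once, 5577 of them at the annotated position, 87 more than once and 44 not at all. Rounded counts were tested with edgeR 4.0.16 in R 4.3.3 (TMM, filterByExpr, quasi-likelihood F test, 3 residual degrees of freedom, Benjamini-Hochberg adjustment over 2325 features, called below 0.05). A standard error is the log2 fold change divided by the square root of F. Alternatives used DESeq2 1.42.0, limma 3.58.1 on log2(value + 1), whose fold changes understate those of low features, other scalings and left-out libraries. Ratios were tested by exact permutation. The edgeR, DESeq2 and limma fits were run on simulated counts in which a small part of the features changed in nitrogen, equally up and down. That check cannot decide between scalings where many features shift, as in the nitrogen libraries here. The labels' batch numbers pair the libraries across groups; deviations of same-numbered libraries correlated at -0.0011, 0.00069 and 0.064 over features for nitrogen with control, potassium with control and nitrogen with potassium. Named are both permeases, the tested permeases of a fixed list, of each further list the called genes with a paired feature and the 2 called own identifiers with the largest change (others read through a paired feature were added after their values were seen), the 5 features most alike each permease and the neighbouring genes. The members and lists were chosen with earlier results of these data known.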

Additional observations from a re-analysis of the deposited data

How the results depend on the processing

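GNP1 was called lower in nitrogen than in control, and than in potassium, under every alternative run, at log2 fold changes from -7.36 to -4.32 against control. For HIP1 in nitrogen against control the call was lost at -0.54 (scaling over paired features), -0.16 (library size), -0.20 (library size without features opposite ribosomal RNA) and -0.19 (both strands summed), and the sign turned to 0.16 on deposited TPM. Against potassium HIP1 turned to 0.19, 0.53, 0.25, 0.82 and 0.69 under the same settings (paired features, library size, library size without ribosomal RNA, TPM, both strands), and its call was lost at -0.55 with no filter on low counts and at -0.70 with limma on the deposited normalised values. The both-strands sum includes the own identifier of HIP1; the cause of the other changes was not tested. The batch number as a replicate block made HIP1 in potassium against control a call at -0.94 and 1 permease lower there; it changed no other call of both genes. Features called in nitrogen against control went from 1075 to 1676 (library size without ribosomal RNA) and 1683 (TPM), and in potassium from 217 to 116 (library size) and 22 (TPM). Called permeases, both kinds of feature together, are counted among the 10 tested own identifiers and the 2 paired features. In nitrogen against control on the TMM scale HIP1 counts as higher through its own identifier and as lower through its paired feature. The shares of all tested features by direction were not counted with TPM, library size or no filter. The counts are therefore not read as particular to permeases. In nitrogen against control called permeases went from 4 to 7 higher (TPM) and from 3 to 1 lower (paired features, library size with or without ribosomal RNA, TPM). In potassium against control they went from 2 higher to 1 (library size, no filter) or 0 (TPM). In nitrogen against potassium they went from 4 to 7 higher (TPM) and from 5 to 3 lower (library size, TPM).

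Leaving out 1 library at a time gave 755 to 831 features called in nitrogen against control, 664 to 780 in nitrogen against potassium and 71 to 231 in potassium against control (71 without potassium library 1, 72 and 92 without control libraries 2 and 1). The log2 fold changes ran from -6.44 to -4.48 for GNP1 in nitrogen against potassium and from -1.29 to -0.54 in potassium against control. For HIP1 they ran from -2.12 to -1.63 in nitrogen against control, from -1.40 to -0.52 in nitrogen against potassium and from -1.34 to -0.51 in potassium against control. The log2 ratio of GNP1 to HIP1 differed by -5.85 to -3.31 in nitrogen against control and by -0.12 to 0.12 in potassium against control. In these fits a lone library is assumed to vary like the other groups. Depth limits the nitrogen level of GNP1, which rests on 16 reads.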
